A study of Homo sapiens with 4 samples.

Results

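The ATF4 stress response and serine synthesis genes are a group of 35 human genes, taken by symbol from the 78932 gene rows of a deposited RNA-seq count table, and all 35 were present. They comprise transcription factors of the integrated stress response, parts of the eIF2 machinery that starts it, stress targets of these factors, and enzymes of serine, folate one-carbon, proline, asparagine and cysteine metabolism. RNA was measured in RPMI 8226 cells, a long-established line from a multiple myeloma, the cancer of plasma cells. The cells were harvested 72 h after they were given antisense oligonucleotides built with locked nucleic acid (LNA ASOs), which are short modified DNA strands that lower an RNA complementary to them. The LINC01432 LNA libraries (n = 2, labelled ASO3) received 50 nM of an oligonucleotide against the long intergenic noncoding RNA LINC01432. The control LNA libraries (n = 2, labelled ASO1) received a control oligonucleotide whose dose is not given separately. There was 1 oligonucleotide per group and 1 cell line. Nothing in the labels ties a group's libraries to separate cultures, so the p-values cover only how far these libraries spread, and that spread may be technical. For the RNA selection, poly(A) enrichment is named in the design text, and removal of ribosomal RNA in the extraction protocol.

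In the integrated stress response, kinases that sense amino acid shortage, lack of heme and other stresses phosphorylate the translation factor eIF2, which slows protein synthesis in general while the ATF4 messenger is translated more. ATF4 then pairs with C/EBP factors and activates genes of amino acid synthesis, uptake and redox balance, and PPP1R15A, one of the induced genes, brings a phosphatase back to eIF2. Serine made by PHGDH, PSAT1 and PSPH feeds the folate cycle, whose one-carbon units go into nucleotides, and many of these enzymes are known ATF4 targets. Plasma cells and myeloma cells, which secrete large amounts of protein, lean on such stress pathways. RNA counts do not read the translation of ATF4 or the phosphorylation of eIF2.

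The libraries held 20873393 to 29161298 gene counts. LINC01432 itself had 9.00 and 9.90 CPM (counts scaled to a common library size) in the LINC01432 LNA libraries, against 20.5 and 17.9 CPM in the control LNA libraries. It fell to 49.1% of the control level (log2 fold change -1.02, SE 0.11, edgeR adjusted p = 0.000228). All 10 plasma cell markers examined were present, at 16.5 to 2750 CPM per gene, and summed to 3910 and 5750 CPM with LINC01432 LNA, against 4310 and 4810 CPM with control LNA. The largest part of these sums was IGLC2, with 1260 and 2750 CPM with LINC01432 LNA, against 1270 and 1580 CPM with control LNA. Of the 10 markers, CD38 rose (log2 fold change 0.72, edgeR adjusted p = 0.000434), TNFRSF17 and XBP1 fell (-0.53 and -0.35, adjusted p = 0.00158 and 0.0158), and 7 did not pass. The 6 T and NK cell markers were at most 0.515 CPM. The 5 myeloid markers were at most 3.61 CPM and summed to 4.24 and 5.43 CPM with LINC01432 LNA, against 3.43 and 3.59 CPM with control LNA, with LYZ at 0. The 4 fibroblast and endothelial markers summed to 6.01 and 7.13 CPM with LINC01432 LNA, against 4.12 and 4.36 CPM with control LNA. Among them COL1A1 was called higher (0.86, adjusted p = 0.0272), a call lost without control LNA library 1 (0.63, adjusted p = 0.274) and after GC correction (0.65, adjusted p = 0.0821). Among 4 epithelial markers, EPCAM (49.8 to 60.9 CPM) and KRT18 (45.4 to 55.1 CPM) were well above KRT8 and CDH1, and their summed level was 99.8 and 99.2 CPM with LINC01432 LNA, against 118 and 114 CPM with control LNA. The part of these marker levels in the results on the ATF4 pathway genes was not tested. In such bulk libraries a change in the share of cells and a change of RNA per cell cannot be told apart.

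After LINC01432 LNA, 5 of 7 tested stress factors, 4 of 7 stress targets and 1 of 5 eIF2 genes were called higher, 0 of the 9 serine and folate enzymes passed, and 2 of 6 enzymes of other amino acid pathways were called lower. Of the 34 genes that passed the filter on low counts, 10 were called higher and 2 lower (edgeR adjusted p under 0.05). This is 29.4% and 5.88%, beside 7.5% and 4.37% of the 18680 genes tested. The remaining 22 did not pass. The median log2 fold change was 0.08, against 0.01 over all genes tested. Both LINC01432 LNA libraries lay above both control libraries for 14 genes and below both for 7, which over all tested genes held for 28.2% and 25.9%, or 54.1% in either direction. The 10 higher genes were ATF4, ATF3, ATF5, DDIT3, CEBPB, PPP1R15A, CHAC1, TRIB3, STC2 and VEGFA, and the 2 lower genes were CBS and PCK2. All 4 of the genes that rose at least 2-fold, DDIT3, ATF3, CHAC1 and CEBPB, had under 20 CPM in every library. Without control LNA library 1, and likewise without control LNA library 2, 6 genes were called higher and 1 lower, and the calls lost were those of ATF4, ATF5, STC2, VEGFA and PCK2. Fits without LINC01432 LNA library 1 or library 2 leave 1 library in that group, so their spread comes from the control pair. Over all genes tested, more genes were called in these fits than with all libraries, and fewer were called without a control library.

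**Figure D1:**
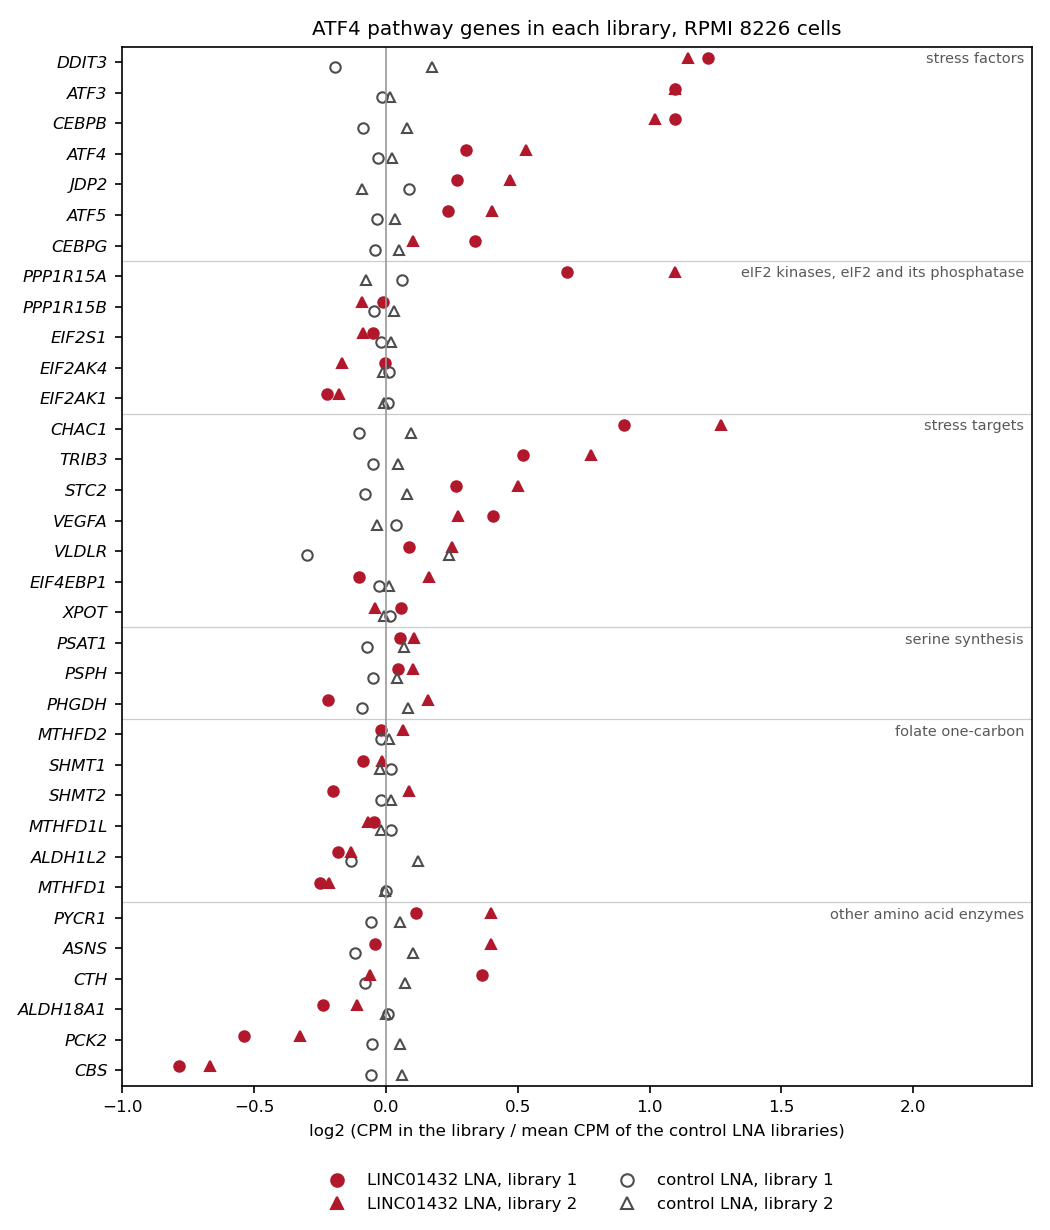
Level of each tested ATF4 pathway gene in each library, as log2 of its CPM over the mean CPM of the control LNA libraries (x axis). Filled red symbols are LINC01432 LNA libraries and open grey symbols control LNA libraries, with circles for library 1 and triangles for library 2. The LINC01432 LNA symbols of the 7 tested stress factors all lie right of the control symbols, while those of the serine and folate enzymes lie around 0.

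Among the stress factors, ATF3 (ENSG00000162772, chromosome 1), a factor of the ATF family that many stresses induce, had 10.6 and 10.6 CPM with LINC01432 LNA, against 4.91 and 5.01 CPM with control LNA. The spread within each pair was far smaller than the gap between them, but 2 libraries are a weak measure of spread. The values rested on 227 and 268 counts with LINC01432 LNA and 143 and 123 with control LNA. ATF3 rose 2.14-fold (log2 fold change 1.09, SE 0.13, edgeR adjusted p = 0.000295). DDIT3 (CHOP), a C/EBP-related factor linked to stress-induced death, had 5.22 and 4.95 CPM with LINC01432 LNA, against 1.96 and 2.53 CPM with control LNA. It rose 2.28-fold (1.19, SE 0.19, edgeR adjusted p = 0.00232). This was the largest fold among the 34 tested genes, and it rested on 112 and 125 counts against 57 and 62. Of its exonic bases, 27.2% overlap MARS1 on the opposite strand, a gene that was at 324 and 375 CPM with LINC01432 LNA and 348 and 349 CPM with control LNA and did not pass (log2 fold change 0.00). CEBPB, a C/EBP factor that can pair with ATF4, had 15.6 and 14.8 CPM with LINC01432 LNA and 6.87 and 7.70 CPM with control LNA. It rose 2.09-fold (1.06, SE 0.12, edgeR adjusted p = 0.000214). Its GC content of 66.2% was the highest of the 35 genes, and after a correction for GC content its log2 fold change was 0.58, still called (edgeR adjusted p = 0.0103).

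ATF4 itself (ENSG00000128272, chromosome 22) was one of the most abundant messengers of the group and rose less. It had 300 and 351 CPM with LINC01432 LNA, against 238 and 247 CPM with control LNA. The groups did not overlap, and the mean was 325 ± 36.5 CPM with LINC01432 LNA and 243 ± 6.28 CPM with control LNA (SD, n = 2 each), a 1.34-fold rise (log2 fold change 0.42, SE 0.09, edgeR adjusted p = 0.0117). The call was lost without control LNA library 1 (0.38, adjusted p = 0.329) and without control LNA library 2 (0.44, adjusted p = 0.193). ATF5, a relative of ATF4 tied to mitochondrial stress, had 64.8 and 72.6 CPM with LINC01432 LNA and 53.7 and 56.3 CPM with control LNA, a 1.25-fold rise (edgeR adjusted p = 0.0318). The call was lost without either control library (0.27 and 0.34, adjusted p = 0.515 and 0.294) and, alone among the 10, after GC correction (0.16, adjusted p = 0.156). Exons of ATF5 also overlap those of genes on the opposite strand, 21.2% of its exonic bases with NUP62 and 2.54% with IL4I1. IL4I1 had 12.7 and 15.9 CPM with LINC01432 LNA and 2.23 and 2.69 CPM with control LNA (5.85-fold, edgeR adjusted p = 6.64e-06). NUP62 had 331 and 363 CPM with LINC01432 LNA and 315 and 311 CPM with control LNA and did not pass. The part of these overlaps in the ATF5 value was not tested.

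The other stress factors did not pass. CEBPG, a C/EBP factor and known partner of ATF4, had 22 and 18.7 CPM with LINC01432 LNA and 16.9 and 18.0 CPM with control LNA (log2 fold change 0.22, 95% interval -0.01 to 0.45, edgeR adjusted p = 0.218). JDP2, a repressor of AP-1 sites, had 10.8 and 12.4 CPM with LINC01432 LNA and 9.51 and 8.40 CPM with control LNA (0.37, interval 0.10 to 0.65, edgeR adjusted p = 0.0770). For both genes the LINC01432 LNA libraries lay above the control libraries. With 1 library left out, the log2 fold change ran from 0.09 to 0.32 for CEBPG and from 0.25 to 0.45 for JDP2. NUPR1, a small stress-induced nuclear protein, was left out by the filter. It had 3 and 13 counts in the LINC01432 LNA libraries and 2 in each control library, so that only LINC01432 LNA library 2 stood clear of a floor of 3 counts. NUPR1 did pass the filter in the fits that kept this library and left out 1 other (log2 fold change 1.96 to 2.69). The gene counts given for those fits therefore include it.

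The genes that act on eIF2 split between the inducible phosphatase subunit and the rest. PPP1R15A (GADD34), which directs protein phosphatase 1 to eIF2, had 19.0 and 25.2 CPM with LINC01432 LNA, against 12.3 and 11.2 CPM with control LNA. LINC01432 LNA library 2 was the higher of its pair. PPP1R15A rose 1.88-fold (log2 fold change 0.91, SE 0.13, edgeR adjusted p = 0.00125) and had no exonic overlap with other genes. PPP1R15B, its constitutive counterpart, had 132 and 125 CPM with LINC01432 LNA and 129 and 136 CPM with control LNA. The groups overlapped, and the 95% interval of its log2 fold change ran from -0.22 to 0.13 (edgeR adjusted p = 0.8). EIF2S1, the phosphorylated subunit of eIF2, had 150 and 146 CPM with LINC01432 LNA and 153 and 157 CPM with control LNA (log2 fold change -0.07). EIF2AK4 (GCN2), the kinase that senses uncharged tRNA, had 53.7 and 47.9 CPM with LINC01432 LNA and 54.2 and 53.4 CPM with control LNA (-0.08). Neither passed. EIF2AK1 (HRI), the heme-regulated kinase, had 162 and 167 CPM with LINC01432 LNA and 190 and 188 CPM with control LNA. Its groups did not overlap, but its log2 fold change of -0.20 missed the threshold (interval -0.37 to -0.03, edgeR adjusted p = 0.125). With 1 library left out, the log2 fold change ran from -0.24 to -0.19 for EIF2AK1 and from -0.19 to -0.02 for EIF2AK4.

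Of 7 stress targets, 4 rose and 3 did not pass, and their median log2 fold change was 0.34. CHAC1, an enzyme that breaks down glutathione and a sensitive ATF4 target, had 12.4 and 16.0 CPM with LINC01432 LNA, against 6.18 and 7.09 CPM with control LNA. It rose 2.15-fold (1.11, SE 0.14, edgeR adjusted p = 0.000613), and 0.83 remained after GC correction, still called. TRIB3, a pseudokinase that restrains ATF4 and AKT, had 122 and 146 CPM with LINC01432 LNA, against 82.3 and 87.9 CPM with control LNA. It rose 1.58-fold (0.66, SE 0.10, edgeR adjusted p = 0.00131). Both genes were higher in LINC01432 LNA library 2 than in library 1, as were ATF4, ATF5, PPP1R15A and STC2. DDIT3, CEBPB and VEGFA were higher in library 1, and ATF3 was level in the pair.

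STC2, a secreted glycoprotein, had 46.9 and 55.2 CPM with LINC01432 LNA and 36.9 and 41.2 CPM with control LNA (1.31-fold, edgeR adjusted p = 0.0257). VEGFA, the angiogenic growth factor, had 71.5 and 65.1 CPM with LINC01432 LNA and 55.3 and 52.6 CPM with control LNA (1.26-fold, edgeR adjusted p = 0.0231). Both rises were small beside those of CHAC1 and TRIB3 and were not called without control LNA library 1 (STC2 0.29 and VEGFA 0.36, adjusted p = 0.442 and 0.287) or without control LNA library 2 (0.46 and 0.29, adjusted p = 0.0806 and 0.437). Scaled by library totals alone, VEGFA also missed the threshold (0.33, adjusted p = 0.0506). XPOT, the exporter of tRNA from the nucleus, had 180 and 168 CPM with LINC01432 LNA and 175 and 172 CPM with control LNA, and VLDLR, a lipoprotein receptor, was near 1 CPM in every library. Neither passed. EIF4EBP1, an inhibitor of cap-dependent translation, had 110 and 132 CPM with LINC01432 LNA and 116 and 119 CPM with control LNA, with overlapping groups (log2 fold change 0.04, edgeR adjusted p = 0.823). With a GC content of 65.5%, it was called lower after GC correction (-0.40, adjusted p = 0.00513). When LINC01432 LNA library 1 was left out the value of EIF4EBP1 was 0.15, and when library 2 was left out it was -0.11.

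GC content moved with the comparison as a whole. Among tested genes sorted by GC content into 10 equal bins, the bin poorest in GC had a median log2 fold change of -0.13 and the richest, from 61.3% GC upward, 0.37. The richest bin held 5 of the 35 genes. After GC correction 9 of the 34 tested genes were called higher and 3 lower, beside 5.8% and 4.38% of all genes, and their median was 0.15. The correction took ATF5 off the higher calls and added EIF4EBP1 to the lower ones. ATF3 and DDIT3, with 46.7% and 49.7% GC, had 1.17 and 1.21 after the correction, against 1.09 and 1.19 before it.

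**Figure D2:**
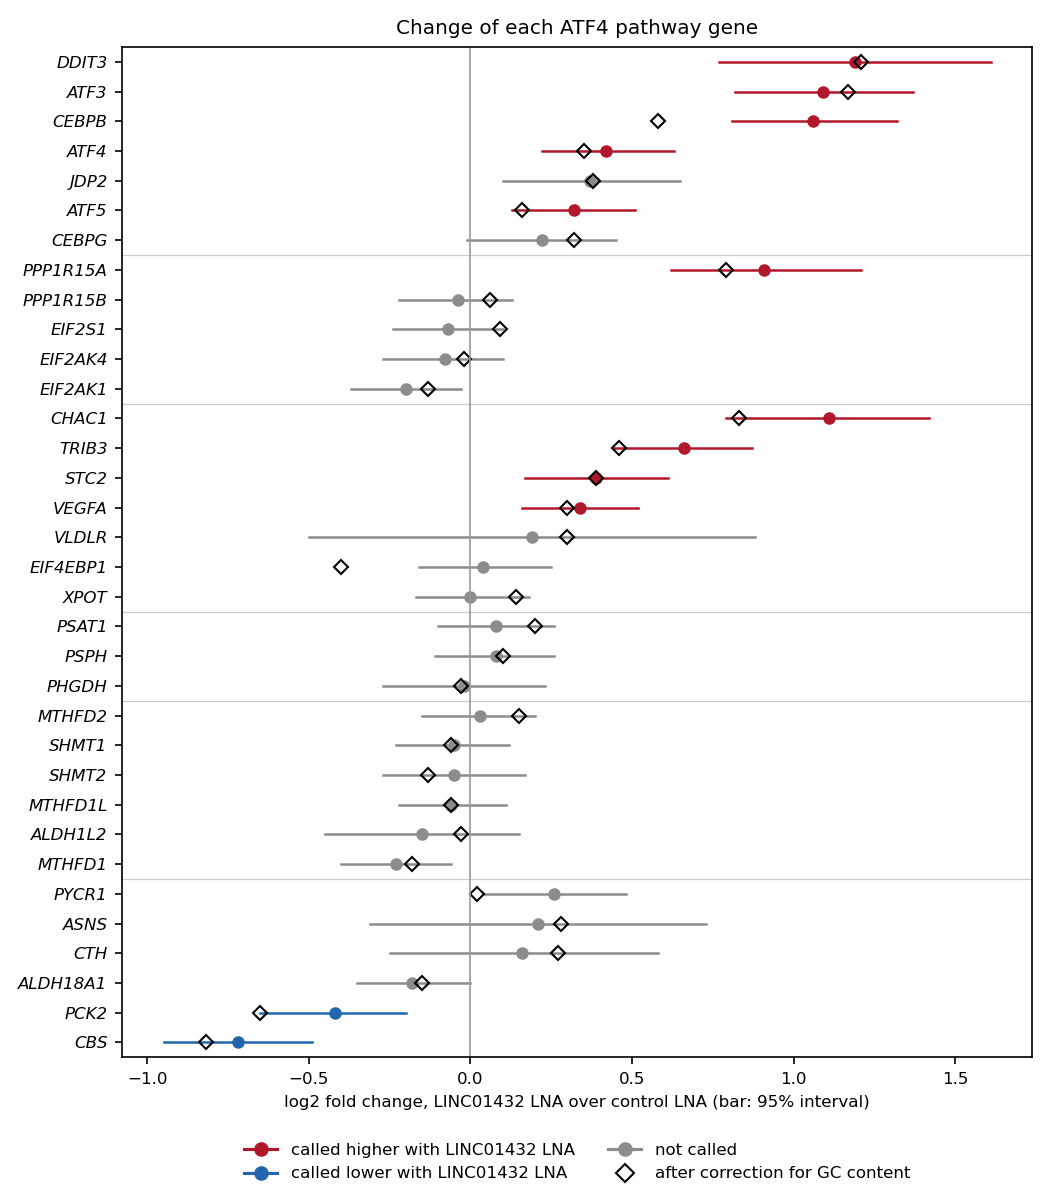
Log2 fold change of each tested ATF4 pathway gene, LINC01432 LNA over control LNA (filled circles, with the 95% interval as a bar), and the value after correction for GC content (open diamonds). Genes called higher are red, called lower blue and not called grey. CEBPB and EIF4EBP1 moved most under the correction: CEBPB has 0.58 with it and 1.06 without, and EIF4EBP1 -0.40 with it and 0.04 without.

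No enzyme of serine synthesis passed the test, and 0 of the 3 had an unadjusted p under 0.05 or passed with DESeq2 or limma-voom. Over all genes tested edgeR called 11.9% in either direction, so a count of 0 among 3 genes says little. PHGDH, which takes the first step out of glycolysis, had 77.7 and 101 CPM with LINC01432 LNA and 84.9 and 95.9 CPM with control LNA. The control libraries lay between the LINC01432 LNA libraries. The 2 other enzymes differed as little. PSAT1, the aminotransferase of the next step, had 109 and 113 CPM with LINC01432 LNA and 100 and 110 CPM with control LNA, and PSPH, the final phosphatase, had 38.4 and 39.9 CPM with LINC01432 LNA and 36 and 38.3 CPM with control LNA. The 95% intervals of their log2 fold changes were -0.27 to 0.23 for PHGDH, -0.10 to 0.26 for PSAT1 and -0.11 to 0.26 for PSPH (edgeR adjusted p = 0.950, 0.596 and 0.628). These intervals leave out a rise as large as that of TRIB3. PHGDH was called lower without LINC01432 LNA library 2 (-0.24, adjusted p = 0.00219), and without LINC01432 LNA library 1 its value was 0.14.

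Of the 6 folate enzymes, 0 passed with edgeR, DESeq2 or limma-voom, and 1, MTHFD1, had an unadjusted p under 0.05 with edgeR. Over all 18680 genes tested, edgeR called 11.9%, and 2688 were higher and 2104 lower at that unadjusted p. A count of 0 among 6 genes says little beside that share. SHMT2, the mitochondrial serine hydroxymethyltransferase, had 357 and 436 CPM with LINC01432 LNA and 405 and 416 CPM with control LNA. Its cytosolic counterpart SHMT1 had 58.2 and 61.1 CPM with LINC01432 LNA and 62.7 and 60.9 CPM with control LNA. Both pairs of groups overlapped, and the intervals ran from -0.27 to 0.17 for SHMT2 and from -0.23 to 0.12 for SHMT1. MTHFD2, the mitochondrial dehydrogenase and cyclohydrolase that ATF4 is known to drive, had 233 and 247 CPM with LINC01432 LNA and 233 and 238 CPM with control LNA (log2 fold change 0.03, interval -0.15 to 0.20). Exons of SLC4A5 on the opposite strand cover 27.2% of its exonic bases, and SLC4A5 was at most 0.515 CPM. MTHFD1L, which releases formate in mitochondria, had 88.2 and 87.0 CPM with LINC01432 LNA and 92.3 and 89.9 CPM with control LNA (-0.06, interval -0.22 to 0.11). ALDH1L2, which oxidises mitochondrial formyl-folate, had 7.23 and 7.49 CPM with LINC01432 LNA and 7.49 and 8.93 CPM with control LNA (-0.15, interval -0.45 to 0.15). Neither passed. MTHFD1, the trifunctional cytosolic enzyme, had 252 and 258 CPM with LINC01432 LNA and 300 and 299 CPM with control LNA. Its groups did not overlap, and it missed the threshold narrowly (-0.23, interval -0.40 to -0.06, edgeR adjusted p = 0.0754). MTHFD1 was called lower when scaled by library totals alone (-0.24, edgeR adjusted p = 0.0405). With 1 library left out, the log2 fold change ran from -0.27 to -0.23 for MTHFD1 and from -0.22 to 0.07 for SHMT2.

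The remaining enzymes held the only falls of the group. CBS, cystathionine beta-synthase, which opens the route from homocysteine to cysteine, had 10.8 and 11.7 CPM with LINC01432 LNA, against 17.9 and 19.4 CPM with control LNA. Both LINC01432 LNA libraries lay well below both control libraries, and the mean was 11.3 ± 0.645 CPM with LINC01432 LNA and 18.6 ± 1.09 CPM with control LNA (SD, n = 2 each). CBS fell to 60.5% of its control level (log2 fold change -0.72, SE 0.10, edgeR adjusted p = 0.00123) and stayed called without any 1 of the 4 libraries (-0.80 to -0.67) and after GC correction (-0.82). A near-identical copy, CBSL on the same chromosome, had 8 and 3 counts with LINC01432 LNA and 10 and 12 with control LNA, so that few reads were assigned to it, and how reads of the pair were divided is not known. CTH, the next enzyme of the route, had 4.99 and 3.72 CPM with LINC01432 LNA and 3.67 and 4.08 CPM with control LNA, with overlapping groups (0.16, interval -0.25 to 0.58).

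PCK2, the mitochondrial phosphoenolpyruvate carboxykinase, had 17.0 and 19.7 CPM with LINC01432 LNA, against 23.8 and 25.6 CPM with control LNA. It fell by 0.42 on the log2 scale (SE 0.10, edgeR adjusted p = 0.0194), and after GC correction its value was -0.65. The call was lost without control LNA library 1 (-0.49, adjusted p = 0.0558) and without control LNA library 2 (-0.38, adjusted p = 0.185). ALDH18A1 and PYCR1, which take successive steps of proline synthesis, leaned in opposite directions without passing. ALDH18A1 had 127 and 139 CPM with LINC01432 LNA and 151 and 150 CPM with control LNA (-0.18, edgeR adjusted p = 0.195). PYCR1 had 200 and 244 CPM with LINC01432 LNA and 178 and 192 CPM with control LNA (0.26, edgeR adjusted p = 0.121; 0.02 after GC correction). With 1 library left out, the log2 fold change ran from -0.26 to -0.13 for ALDH18A1 and from 0.09 to 0.38 for PYCR1.

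ASNS, asparagine synthetase, is a classical ATF4 target and had few counts in these libraries. It had 45 and 72 counts, or 2.10 and 2.85 CPM, with LINC01432 LNA, and 58 and 57 counts, or 1.99 and 2.32 CPM, with control LNA. The groups overlapped (log2 fold change 0.21, interval -0.31 to 0.73, edgeR adjusted p = 0.641), so these counts leave a change within that interval open. Of its exonic bases, 44.6% lie within AC079781.5, a transcript of the same strand with 4 and 5 counts with LINC01432 LNA and 5 and 3 with control LNA. Whether reads shared by the pair were left uncounted was not tested. Per kilobase of exon, ASNS stood at 0.556 CPM with LINC01432 LNA and 0.484 CPM with control LNA, whereas ATF4 stood at 129 CPM per kilobase with LINC01432 LNA and 96.5 with control LNA, and PSAT1 at 50.7 with LINC01432 LNA and 48.0 with control LNA. The genes that rose at least 2-fold stood between these. CEBPB was at 7.77 CPM per kilobase with LINC01432 LNA and 3.72 with control LNA, and ATF3 at 2.62 with LINC01432 LNA and 1.23 with control LNA. CHAC1 and DDIT3 lay within that range, at 6.90 and 3.89 with LINC01432 LNA and 3.22 and 1.72 with control LNA. Lengths are the union of all annotated exons, so genes with many annotated exons, such as PHGDH, read low on this scale.

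**Figure D3:**
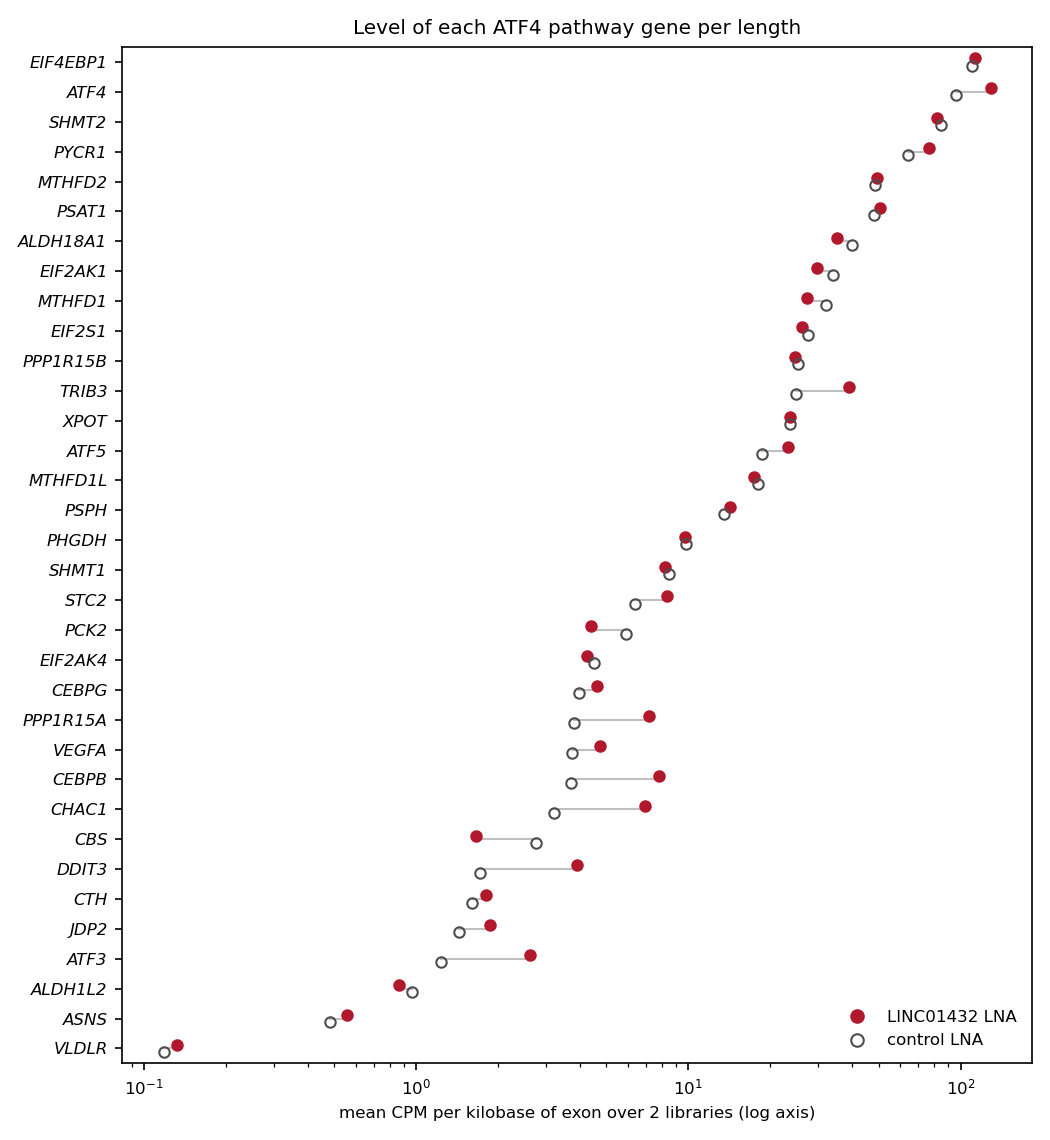
Mean level of each tested ATF4 pathway gene in CPM per kilobase of exon (x axis, log scale), LINC01432 LNA in filled red and control LNA in open grey, ordered by the control level. ATF4 stood at 129 with LINC01432 LNA and 96.5 with control LNA, and ASNS at 0.556 and 0.484, near the foot of the order.

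ATF4 dimers with C/EBP factors bind the C/EBP-ATF response element, whose core is often written TGATGNAA (TTNCATCA on the other strand). RefSeq windows of 250 bases before to 50 bases after a transcript start (GRCh38.p14) were given for 27 of the 35 genes, and 7 of these held the core on either strand. It was present in 4.46% of the 27305 genes with a window and in 3.62% of the 35116 windows. A gene with several transcript starts has several windows, and it counts as a holder if any of them held the core. For ATF3 the window at chr1:212565157-212565456 held it and that at chr1:212614768-212615067 did not. ASNS, CEBPG, JDP2 and MTHFD1L also had windows with and without it. Which start these cells use was not tested. ATF3 and CHAC1 were the only holders among the 9 higher genes with a window, both lower genes with a window, CBS and PCK2, held none, and the other 5 holders were among the 16 that were not called. Counted by call, the core was in 2 of 9 higher, 0 of 2 lower and 5 of 16 uncalled genes. The 7 stretches are shown because they differ in the base at N and in the flanks, on the gene's strand with the core in capitals.

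ATF3 (chr1:212565205-212565234, + strand): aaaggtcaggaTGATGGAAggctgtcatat

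CHAC1 (chr15:40953251-40953280, + strand): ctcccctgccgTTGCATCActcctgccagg

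ASNS (chr7:97872458-97872487, - strand): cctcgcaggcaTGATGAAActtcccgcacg

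CEBPG (chr19:33374060-33374089, + strand): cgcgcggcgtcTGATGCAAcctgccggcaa

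JDP2 (chr14:75427995-75428024, + strand): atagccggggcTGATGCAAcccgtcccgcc

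PPP1R15B (chr1:204412026-204412055, - strand): cccgccccggcTGATGCAAcctcacgctgc

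MTHFD1L (chr6:150866346-150866375, + strand): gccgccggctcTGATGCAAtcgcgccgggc

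CEBPG, JDP2, PPP1R15B, MTHFD1L and, read on the other strand, CHAC1 share the form with C at N, while ATF3 has G and ASNS has A. Among those with C at N, CHAC1 rose 2.15-fold, and the others were not called. Their log2 fold changes were 0.37 for JDP2, 0.22 for CEBPG, -0.04 for PPP1R15B and -0.06 for MTHFD1L. The whole windows of the 2 genes that rose and hold the core are given for context, the core in capitals. A match of letters is not a shown binding site, and no other motif was searched.

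ATF3 window (chr1:212565157-212565456, + strand): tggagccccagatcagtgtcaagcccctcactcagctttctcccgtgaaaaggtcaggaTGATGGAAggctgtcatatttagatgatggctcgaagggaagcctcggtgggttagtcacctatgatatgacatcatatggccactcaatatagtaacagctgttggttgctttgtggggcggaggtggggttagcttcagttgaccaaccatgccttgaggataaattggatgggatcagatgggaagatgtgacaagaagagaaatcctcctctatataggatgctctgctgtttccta

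CHAC1 window (chr15:40953221-40953520, + strand): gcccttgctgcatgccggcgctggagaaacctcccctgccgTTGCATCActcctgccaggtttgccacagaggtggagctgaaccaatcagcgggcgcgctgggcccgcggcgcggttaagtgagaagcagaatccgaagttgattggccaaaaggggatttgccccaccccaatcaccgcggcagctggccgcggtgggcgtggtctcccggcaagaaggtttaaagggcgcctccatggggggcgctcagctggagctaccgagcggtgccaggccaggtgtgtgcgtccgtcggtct

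Related genes were counted in 7 further lists, chosen with earlier results of these data known. Over all 18680 genes tested, edgeR called 7.5% higher and 4.37% lower, with a median log2 fold change of 0.01. Of 18 tested other ATF4 targets, 5 rose, 1 fell and 12 did not pass (27.8% and 5.56%), with a median log2 fold change of 0.09. The share that fell was near that of all genes. SESN2, a stress-induced inhibitor of mTORC1 signalling, had 79.0 and 96.0 CPM with LINC01432 LNA and 50.4 and 54.8 CPM with control LNA (1.67-fold, edgeR adjusted p = 0.000879). GADD45A, a growth arrest gene, and TSC22D3 (GILZ) rose 1.55-fold and 1.57-fold (edgeR adjusted p = 0.00187 and 0.00306). DDIT4 (REDD1), another inhibitor of mTORC1, rose 1.34-fold (edgeR adjusted p = 0.00760), a call lost without control LNA library 1 (adjusted p = 0.277) and without library 2 (0.0899). SLC3A2, the heavy chain of amino acid transporters, had 786 and 959 CPM with LINC01432 LNA and 357 and 356 CPM with control LNA, a 2.44-fold rise, larger than that of any of the 34 tested genes. SLC7A5, its light chain partner, did not pass (log2 fold change 0.17), nor did SLC7A11 (0.07), SLC7A1 (0.05) or SLC1A5 (-0.01), and SLC1A4, a neutral amino acid carrier, fell by 0.29 on the log2 scale (edgeR adjusted p = 0.0380). The SLC1A4 call was lost without control LNA library 1 (adjusted p = 0.468), without library 2 (0.522) and after GC correction (0.0772), while SLC3A2, SESN2, GADD45A and TSC22D3 were called in all 4 fits with 1 library left out.

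Of 13 cytosolic aminoacyl-tRNA synthetases, several of them known ATF4 targets, 0 rose and 1 fell, EPRS1 (-0.32, edgeR adjusted p = 0.0254), with a median of -0.11. This is 0% and 7.69%, beside 7.5% and 4.37% of all genes tested. None of the 13 was higher at an unadjusted edgeR p under 0.05, with DESeq2 or with limma-voom. At that unadjusted p 3 were lower, beside 2688 higher and 2104 lower of all 18680 genes tested. The EPRS1 call was lost after GC correction (edgeR adjusted p = 0.0643), where VARS1 was called lower instead (-0.25, adjusted p = 0.0497). It was also lost without control LNA library 1 (log2 fold change -0.34) and without library 2 (-0.33). Of 20 other genes of the eIF2 pathway, edgeR called 0 in either direction, beside 11.9% of all genes tested. At an unadjusted edgeR p under 0.05, 0 were higher and 2 lower, beside 2688 higher and 2104 lower of all 18680 genes tested. After GC correction 0 were called higher and 2 lower, beside 5.8% and 4.38% of all genes. DESeq2 called 1 lower, and limma-voom called 0. EIF2AK3 (PERK), the kinase of ER stress, had 21.8 and 20.9 CPM with LINC01432 LNA and 24.8 and 24.7 CPM with control LNA (-0.22, edgeR adjusted p = 0.142). EIF2AK2 (PKR), the kinase of double-stranded RNA and itself an interferon-induced gene, had 166 and 145 CPM with LINC01432 LNA and 144 and 160 CPM with control LNA (0.04, edgeR adjusted p = 0.859). Its groups overlapped.

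Of 21 other folate and serine genes tested, 0 rose and 3 fell with edgeR, DESeq2 and limma-voom alike. With edgeR this is 0% and 14.3%, beside 7.5% and 4.37% of all genes tested. At an unadjusted edgeR p under 0.05, 1 was higher and 5 lower, beside 2688 higher and 2104 lower of all 18680 genes tested. After GC correction 0 were called higher and 4 lower, beside 5.8% and 4.38% of all genes. GLDC, the glycine decarboxylase, had 47.1 and 53.1 CPM with LINC01432 LNA and 65.0 and 70.1 CPM with control LNA (-0.43, edgeR adjusted p = 0.00898). GART, which uses formyl-folate in purine synthesis, fell by 0.32 on the log2 scale (edgeR adjusted p = 0.0196). Without control LNA library 1 the adjusted p was 0.365 for GART, and without control LNA library 2 it was 0.399 for GART and 0.166 for GLDC. Of 11 genes of proline, aspartate and glutamine metabolism, GLUL, glutamine synthetase, rose 1.33-fold (edgeR adjusted p = 0.00645; 0.296 and 0.133 without control LNA library 1 and 2) and 0 fell. Of 10 genes of the mitochondrial unfolded protein response, CLPP, a matrix protease subunit, rose 1.56-fold (log2 fold change 0.64, edgeR adjusted p = 0.00120) and 0 fell. These single rises are 9.09% of the proline, aspartate and glutamine list and 10% of the mitochondrial list, near the 7.5% of all genes. With a GC content of 64.3%, CLPP had 0.27 after GC correction, still called (adjusted p = 0.0323).

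Genes of the other branches of the ER stress response were counted as well. Of 21 genes of the IRE1-XBP1 and ATF6 branches, 0 rose and 4 fell, with a median of -0.18. This is 0% and 19%, beside 7.5% and 4.37% of all genes tested. At an unadjusted edgeR p under 0.05, 1 was higher and 7 lower, beside 2688 higher and 2104 lower of all 18680 genes tested. DESeq2 and limma-voom each called 0 higher and 5 lower. Over all genes they called 981 and 1369 higher, and 641 and 805 lower. XBP1, the factor made active by IRE1, had 331 and 356 CPM with LINC01432 LNA, against 442 and 437 CPM with control LNA (-0.35, edgeR adjusted p = 0.0158). The chaperone genes HSP90B1 and HYOU1 and the co-chaperone gene DNAJC3 fell by 0.38, 0.31 and 0.32. These 4 calls were lost without control LNA library 1 (adjusted p = 0.274 to 0.442) and without control LNA library 2 (0.304 to 0.507), and those of XBP1 and DNAJC3 also after GC correction (0.0844 and 0.193). HSPA5 (BiP), the ER chaperone most used as a marker of ER stress, had 975 and 1120 CPM with LINC01432 LNA and 1080 and 1160 CPM with control LNA, with overlapping groups (-0.10, edgeR adjusted p = 0.586). No test of the difference between lists was made.

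**Figure D4:**
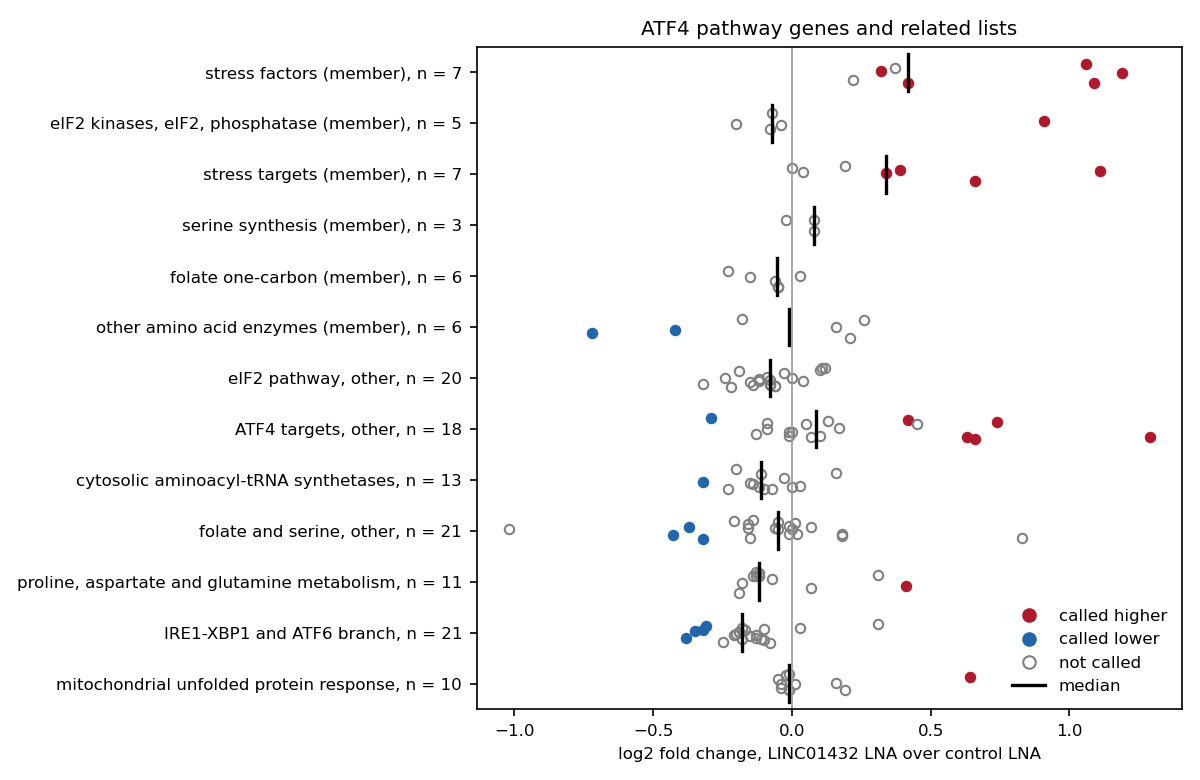
Log2 fold change of each tested gene (LINC01432 LNA over control LNA, x axis) in the 6 groups of ATF4 pathway genes, marked as members, and in 7 related lists. Red points were called higher, blue points lower and open points not called, and the black bar is the median, which is 0.42 for the stress factors and -0.18 for the IRE1-XBP1 and ATF6 branches.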

How the data were processed

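The authors deposited 1 table of raw counts, whole numbers for each gene and library. The submitters' processing notes list bcl2fastq, Salmon 1.10.0, STAR 2.7.11b, Subread with its featureCounts 2.0.8, and the build GRCh38, without their roles or order. Which annotation and strand setting the counting used is not given in the sources used here. Rows naming no gene (92 ERCC, 5 transgene; at most 4.2e-05% of a library) were left out. Libraries were grouped by title. Symbols matched 61481 gene IDs; GENCODE 29 gave exons, overlaps and the GC content of the longest transcript for 91.3% of tested genes.

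The test was edgeR 4.0.16 (R 4.3.3) quasi-likelihood F with TMM and filterByExpr (minimum count 10, total 15), group as the only term, and Benjamini-Hochberg adjustment over 18680 genes. CPM use TMM-scaled sizes. With 2 against 2, an exact permutation test of 1 gene cannot go below p = 0.333, so calls rest on spread pooled across genes (biological coefficient of variation 7.13%). The GC correction subtracts a lowess trend (span 0.3) per library. The test was also run on simulated counts with known changes. These had the same spread setting for every gene and no GC trend, so that run does not cover gene-to-gene differences in spread or GC effects. DESeq2 1.42.0 and limma-voom 3.58.1 were among the alternatives. Named were all 35 genes, LINC01432, up to 4 called genes per further list, and, chosen after their values were seen, genes set beside them. Members and lists were chosen with earlier results of these data known. The values of 1 gene of the further lists are not reported here.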

Additional observations from a re-analysis of the deposited data

Results flagged for a closer look

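The rows for ERCC spike-in RNAs and transgenes, which the comparison does not use, summed to 15 counts over the LINC01432 LNA libraries and 4 over the control LNA libraries. This was 0.192 and 0.420 CPM of the whole library with LINC01432 LNA, against 0.103 and 0.0408 with control LNA, and it was listed because both LINC01432 LNA libraries exceeded both controls.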

How the results depend on the processing

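Without each library in turn, the number of genes called ranged from 766 to 5228, against 2218 with all libraries, that of ATF4 pathway genes called higher from 6 to 14 and called lower from 1 to 7. Of the 12 called ATF4 pathway genes, 7 were called in each of these 4 fits. At an adjusted p under 0.01, 1000 genes were called, with 6 of the pathway higher and 1 lower. The titles share replicate numbers, but same-numbered libraries deviated together only weakly (correlation 0.13), and nothing says that a number marks a shared culture. With the replicate number as a block 3862 genes were called, and with the block and GC correction 3767, of which 4 pathway genes were lower. The cause was not tested. Of pathway genes not called with all libraries, XPOT had -0.01 with DESeq2's median of ratios, without a filter on low counts and by the DESeq2 Wald test, and PHGDH had 0.00 under the stricter filter. With GC correction, alone and with the block, EIF2S1 had 0.09 and 0.09, PPP1R15B 0.06 and 0.06, and EIF4EBP1 -0.40 and -0.40. With 1 library left out the sign also turned for MTHFD2 (-0.03 to 0.05), PSAT1 (-0.00 to 0.14), VLDLR (-0.09 to 0.46), XPOT (-0.06 to 0.03), PHGDH (-0.24 to 0.14), CTH (-0.07 to 0.35), SHMT2 (-0.22 to 0.07), ASNS (-0.05 to 0.39) and EIF4EBP1 (-0.11 to 0.15). None of the 12 called genes turned in any setting run. Low counts limit NUPR1, VLDLR and ASNS.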
